A study of Homo sapiens with 9 samples.

Results

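The genes described here encode the subunits of the transcription factor NF-κB and its best known feedback regulators: RELA, NFKB1, REL, NFKB2, RELB, NFKBIA, NFKBIE, TNFAIP3, BIRC3 and TNF. The rule that chose them uses their names and no measured value, though it was set with earlier results of these data known, and they are 10 of the 60617 gene identifiers in the count tables. All 10 symbols were matched to 1 Ensembl identifier each, and 9 of the 10 passed the filter on low counts, each with at least 59 estimated counts in every library. TNF did not pass it and is given by its counts.

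RNA sequencing was done on PC-3 cells, a line from a human prostate cancer that grows without androgen. There were 3 libraries of cells given vehicle (Ctrl), 3 of cells given 1 µM decitabine (Dec) and 3 of cells given 1 µM decitabine with 200 µM SAM (Dec_Sam). The labels give 5 days of treatment in a text that also covers DNA extraction. This time was assumed to hold for the RNA libraries of all groups. Decitabine is a cytidine analogue that traps DNA methyltransferases, and SAM (S-adenosylmethionine) is the methyl donor those enzymes use. No library of cells given SAM alone was used here, so an effect of SAM in the absence of decitabine was not analysed, and all libraries come from 1 cell line.

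NF-κB is a family of dimers built from RELA, RELB, REL and the products of NFKB1 (p105, cut to p50) and NFKB2 (p100, cut to p52). In the canonical arm, inhibitors such as IκBα (NFKBIA) and IκBε (NFKBIE) hold RELA and p50 in the cytoplasm until the IKK complex has them degraded. In the non-canonical arm, the kinase NIK (MAP3K14) drives the cutting of p100, and RELB with p52 enters the nucleus. Many of these genes are themselves NF-κB targets: A20 (TNFAIP3) is a ubiquitin-editing enzyme that shuts the pathway down, cIAP2 (BIRC3) is a ubiquitin ligase of TNF receptor complexes, and TNF is a ligand that switches the pathway on.

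The promoters of several members carry the letters of NF-κB's own binding motif, and these stretches are shown because these genes are known as NF-κB targets. The CpG content of the promoters is given because decitabine acts on CpG sites in DNA. The matched letters printed below hold no CpG themselves. RefSeq promoter windows of 300 bases (250 before to 50 after the transcription start, GRCh38.p14) were at hand for 8 of the 10 genes, 12 windows in all; RELB and NFKBIE had none in the table. Each window was searched on both strands for the 10-base κB consensus, and overlapping matches were merged. It was found in 7 of the 12 windows, of 6 genes, against 5.91% of the 35116 windows of all genes. The windows of all genes were not matched for CpG content, so the 2 shares are a description. Neither RELA window nor the TNF window held these letters, which says only that they are not in those 300 bases. The matched letters are in capitals, with 20 bases on either side in lower case, written 5′ to 3′ on the strand of the gene. The stretches lie at chr4:102501290-102501339 (NFKB1), chr10:102394451-102394529 (NFKB2), chr2:60881507-60881557 (REL), chr14:35404801-35404850 (NFKBIA, minus strand), chr6:137867172-137867233 (TNFAIP3) and chr11:102317265-102317378 (BIRC3).
NFKB1: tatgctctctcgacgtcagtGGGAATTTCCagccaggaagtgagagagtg
NFKB2: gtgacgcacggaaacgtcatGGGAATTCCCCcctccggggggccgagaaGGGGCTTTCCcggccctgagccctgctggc
REL: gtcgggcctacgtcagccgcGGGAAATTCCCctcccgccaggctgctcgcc
NFKBIA: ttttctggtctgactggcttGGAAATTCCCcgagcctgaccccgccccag
TNFAIP3: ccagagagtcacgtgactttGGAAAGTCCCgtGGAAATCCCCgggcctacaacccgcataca
BIRC3: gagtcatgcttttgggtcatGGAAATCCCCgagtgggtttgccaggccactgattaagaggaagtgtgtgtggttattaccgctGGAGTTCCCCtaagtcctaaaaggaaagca
TNFAIP3, BIRC3 and this window of NFKB2 each had 2 separate stretches. Another window of NFKB2 also held 2, beginning at -176 and -21 bases from its transcription start, which are not printed. The number of CpG dinucleotides was 7 and 48 in the windows of RELA, 35 and 28 in those of NFKB1 and 20, 28 and 21 in those of NFKB2. It was 41 for REL, 22 for NFKBIA, 35 for TNFAIP3, 15 for BIRC3 and 11 for TNF. The median of all windows was 14, and only the TNF window and 1 window of RELA were below it. DNA methylation in these windows was not analysed here.

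**Figure D1:**
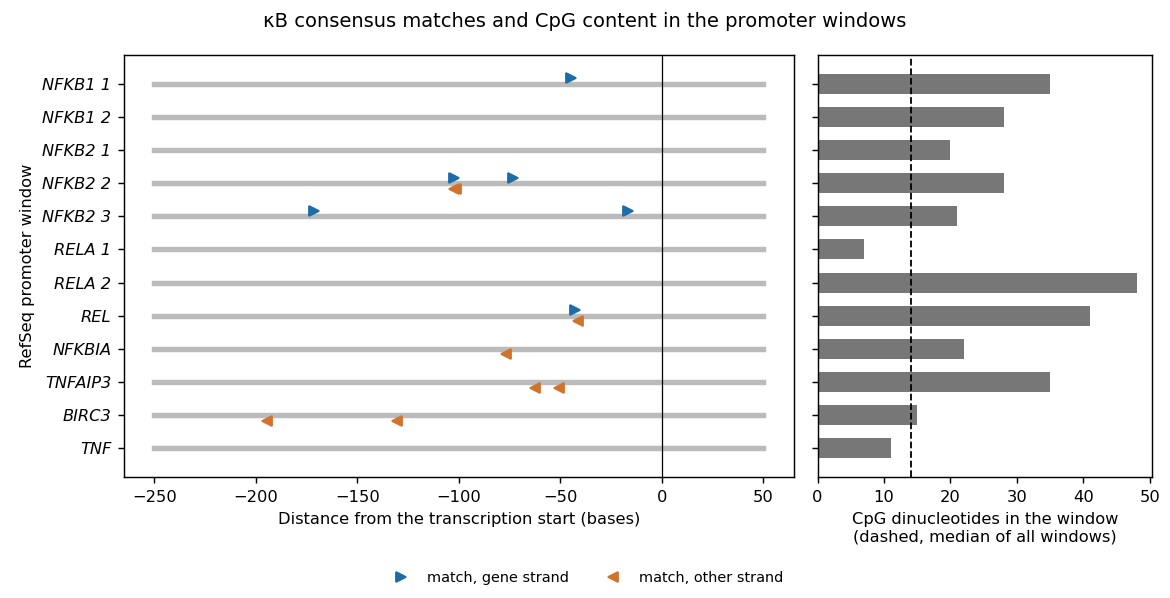
Promoter windows of the 8 genes with a RefSeq window; the left panel plots each match to the κB consensus by its distance from the transcription start in bases and its strand, and the right panel the number of CpG dinucleotides per window. Matches sit upstream of the start in 7 of the 12 windows. The CpG counts are above the median of 14 except in the TNF window and 1 window of RELA.

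The libraries were of nearly equal size, with 21934307 to 22489684 estimated counts each. The labels do not say whether the replicates came from separate cultures, so p-values measure the spread between these libraries, which may be technical. Levels are given as CPM (each gene's share of a library's counts, scaled to a common library size) after TMM scaling, whose factors were 0.895 to 0.902 in Ctrl, 1.06 to 1.08 in Dec and 1.03 to 1.07 in Dec_Sam. The 4 markers listed for PC-3 cells, the keratins KRT8, KRT18 and KRT19 and the mesenchymal gene VIM, were all high and summed to 2110 to 2249 CPM in Ctrl, 1361 to 1505 in Dec and 1168 to 1374 in Dec_Sam. VIM carried most of the fall, from 1220 to 1313 CPM in Ctrl to 523.5 to 639 in Dec, and KRT8 went the other way, from 107 to 127 CPM in Ctrl to 254.5 to 273.7 in Dec and 201.4 to 217 in Dec_Sam. Of the androgen-responsive genes, KLK3 had 0 counts in every library, and KLK2 had 0 in Ctrl, 13 to 24 in Dec and 11 to 18 in Dec_Sam. Leukocyte markers moved with treatment: 5 of them summed to 38.3 to 48.2 CPM in Ctrl, 222.6 to 300.3 in Dec and 105.1 to 182.7 in Dec_Sam, nearly all of it from CD68, while CD3E had at most 2 counts, ITGAM at most 3, CD14 at most 24 and PTPRC 1 to 2 counts in Ctrl against 13 to 30 in the treated libraries. The 4 fibroblast and endothelial markers summed to 12.9 to 14.8 CPM in Ctrl, 84.3 to 98.8 in Dec and 80.0 to 92.6 in Dec_Sam, mostly COL1A1 and PECAM1. The part of these changes in the results below was not tested.

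In cells given decitabine the non-canonical subunits NFKB2 and RELB and most of the feedback genes were several times higher, while the canonical subunits RELA and NFKB1 did not pass the test and had fitted values slightly below 0 that turned positive with library totals as the only scaling. Of the 9 genes tested in Dec against Ctrl, 6 were higher (NFKB2, RELB, REL, NFKBIE, TNFAIP3 and BIRC3) and 0 lower, with an adjusted p below 0.05 in the edgeR quasi-likelihood test over all genes; among all 18532 genes tested, 36.3% were higher and 32.5% lower. The median log2 fold change of the 9 genes was 1.75, that of all genes 0.03. For 7 of the 9, the 6 and NFKBIA, every Dec library was above every Ctrl library, as were 38.1% of all genes. In Dec_Sam against Ctrl, which uses the same control libraries, 5 of the 9 were higher (those 6 without REL) and 0 lower, beside 35.9% and 31.3% of all genes, and the median was 1.41 against 0.05. The groups did not overlap for 5 genes that were higher in Dec_Sam (38.0% of all genes) and for 1, NFKB1, that was lower (33.6%).

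**Figure D2:**
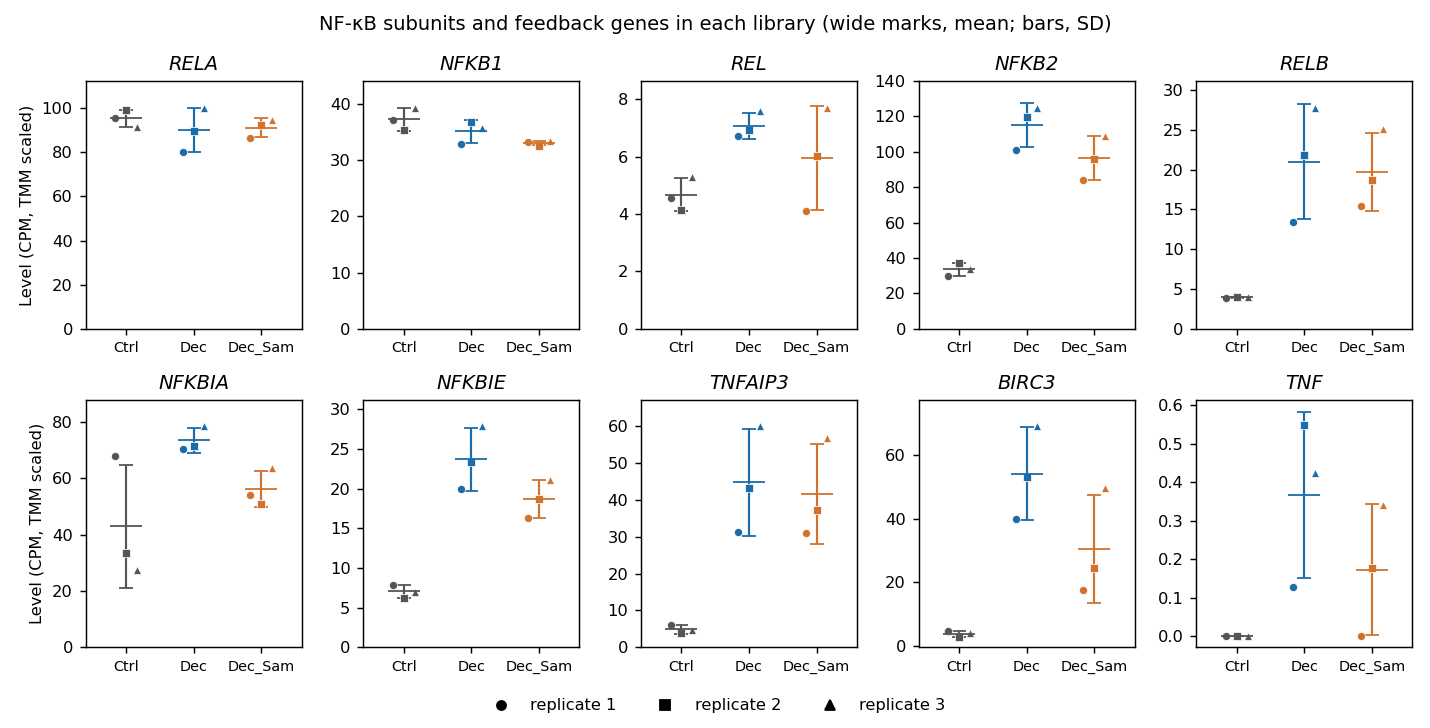
Level of each gene in CPM (TMM scaled, linear axes) in the 3 Ctrl, 3 Dec and 3 Dec_Sam libraries, with the symbol giving the replicate, the wide mark the mean and the bar the SD. NFKB2, RELB, NFKBIE, TNFAIP3 and BIRC3 stand above Ctrl in all 6 treated libraries, and the RELA and NFKB1 libraries lie close together in all groups.

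RELA (chr11:65653599-65663090, minus strand; all gene coordinates here are GRCh38, from GENCODE release 44), the main activating subunit of the canonical arm, was at 91.5 to 99.3 CPM in the Ctrl libraries, 80.3 to 100.3 in Dec and 86.5 to 94.7 in Dec_Sam. The groups overlapped. The fitted log2 fold change was -0.08 (SE 0.08, adjusted p = 0.379) in Dec and -0.06 (SE 0.08, adjusted p = 0.499) in Dec_Sam against Ctrl, and both turned positive, to 0.16 and 0.16, when libraries were scaled by their totals alone, a scaling that moved the median of all genes to 0.28 and 0.27. The 95% confidence interval of the Dec value, -0.26 to 0.09, bounds the change at this depth.

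NFKB1 (chr4:102501330-102617302), the source of p50, was at 35.3 to 39.4 CPM in Ctrl, 32.9 to 36.8 in Dec and 32.6 to 33.4 in Dec_Sam. All 3 Dec_Sam libraries were below all 3 Ctrl libraries, while Dec overlapped with both. Neither comparison passed the test: the log2 fold change was -0.09 (SE 0.08, adjusted p = 0.336) in Dec and -0.17 (SE 0.08, adjusted p = 0.0600) in Dec_Sam, and with library totals alone they were 0.16 and 0.05. Without Ctrl replicate 2 the Dec_Sam value was -0.22 with an adjusted p of 0.0464.

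REL (chr2:60881491-60931612), the subunit c-Rel, best known in lymphoid cells, was low throughout, at 4.57, 4.15 and 5.28 CPM in Ctrl, 6.72, 6.92 and 7.58 in Dec and 4.09, 6.03 and 7.71 in Dec_Sam. The Dec libraries were all above Ctrl, and the Dec_Sam libraries spread from below Ctrl to above Dec. REL was higher in Dec by a log2 fold change of 0.60 (SE 0.20, adjusted p = 0.0142), which was lost without Ctrl replicate 2 (0.51, adjusted p = 0.0654). The Dec_Sam value of 0.35 (SE 0.20, adjusted p = 0.134) passed without Dec_Sam replicate 1 (0.55, adjusted p = 0.0128) and with library totals as the only scaling (0.57, adjusted p = 0.0246). REL shares 5702 exonic bases on the same strand with the long non-coding RNA ENSG00000267520, which had 88 to 135 counts in Ctrl, 106 to 177 in Dec and 124 to 137 in Dec_Sam, so the division of counts between these genes is uncertain.

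NFKB2 (chr10:102394110-102402524), the source of p100 and p52, rose from 30.0, 36.9 and 33.7 CPM in the Ctrl libraries to 101.3, 119.5 and 125.0 in Dec and 84.2, 96.1 and 109.0 in Dec_Sam. All 6 treated libraries were far above the highest control, and Dec and Dec_Sam overlapped. The rise was 3.44-fold in Dec (95% confidence interval 2.91 to 4.06, adjusted p = 1.3e-08) and 2.88-fold in Dec_Sam (2.44 to 3.40, adjusted p = 5.38e-08).

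RELB (chr19:45001461-45038192), the partner of p52, had the tightest controls, at 3.87, 4.0 and 3.95 CPM, and rose to 13.4, 21.8 and 27.8 in Dec and 15.5, 18.7 and 25.1 in Dec_Sam. Every treated library was above every control, and the treated libraries were much more spread than the controls. The rise was 5.32-fold in Dec (3.33 to 8.49, adjusted p = 7.89e-05) and 5.00-fold in Dec_Sam (3.13 to 8.0, adjusted p = 0.000108).

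Levels divided by the summed exon length allow the subunits to be set against each other. The size of each ratio depends on the length chosen, and its change between groups does not. NFKB2 stood to NFKB1 as 2.27, 2.93 and 2.41 to 1 in the Ctrl libraries, as 8.66, 9.12 and 9.82 to 1 in Dec and as 7.11, 8.28 and 9.18 to 1 in Dec_Sam. For RELB to RELA the ratios were 0.0739, 0.0734 and 0.0786 in Ctrl, 0.304, 0.443 and 0.504 in Dec and 0.326, 0.368 and 0.482 in Dec_Sam. Both ratios were thus above every control in all 6 treated libraries, and RELB remained below RELA throughout. The mean NFKB2 to NFKB1 ratio was 3.63 times that of Ctrl in Dec and 3.23 times in Dec_Sam, and for RELB to RELA these were 5.54 and 5.20 times. Each gave p = 0.1 in a two-sided exact permutation test, the smallest p that 3 against 3 libraries allow; between Dec_Sam and Dec the exact p was 0.3 and 0.8.

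**Figure D3:**
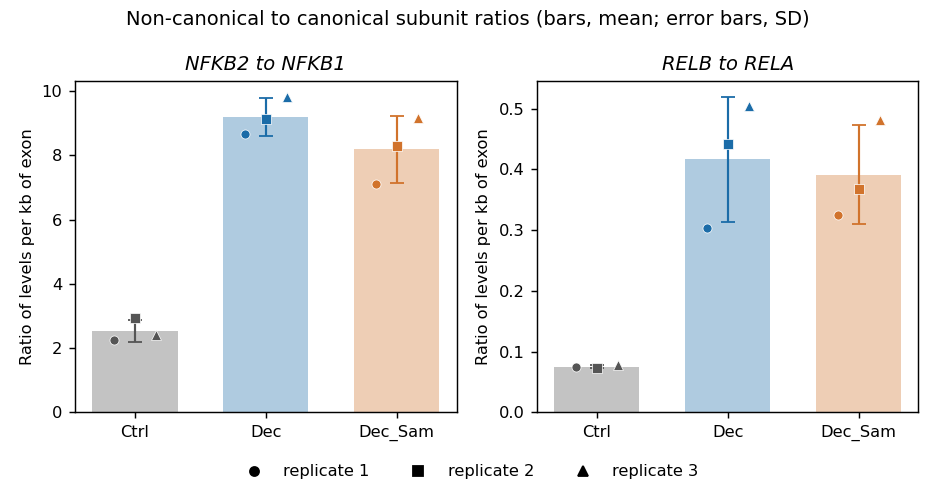
Ratio of levels per kb of exon of NFKB2 to NFKB1 (left) and RELB to RELA (right) in each library, with bars for the mean, error bars for the SD and symbols for the replicate. Both ratios are higher in all 6 treated libraries than in any control, and those of Dec and Dec_Sam overlap.

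NFKBIA (chr14:35401079-35404749, minus strand), the inhibitor that NF-κB resynthesises within minutes of its release, was at 67.9, 33.5 and 27.4 CPM in Ctrl, 70.6, 71.3 and 78.6 in Dec and 54.3, 50.9 and 63.5 in Dec_Sam. Ctrl replicate 1 stood apart from the other controls and close to the lowest Dec library. The log2 fold change was 0.78 (SE 0.32, adjusted p = 0.0671) in Dec and 0.39 (SE 0.32, adjusted p = 0.319) in Dec_Sam. Without Ctrl replicate 1 both passed the test, at 1.26 (adjusted p = 1.17e-06) and 0.88 (adjusted p = 2.63e-05). The Dec value also passed with library totals alone (1.02), DESeq2 (0.80) and voom with limma (0.89), so NFKBIA depends on 1 library and on the test.

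NFKBIE (chr6:44258166-44265788, minus strand), whose product IκBε holds RELA and c-Rel dimers, was at 7.85, 6.25 and 7.01 CPM in Ctrl, 19.9, 23.3 and 27.9 in Dec and 16.3, 18.7 and 21.1 in Dec_Sam. All treated libraries were above all controls, and Dec and Dec_Sam overlapped. The rise was 3.36-fold in Dec (2.72 to 4.16, adjusted p = 9.67e-08) and 2.66-fold in Dec_Sam (2.15 to 3.29, adjusted p = 9.39e-07).

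TNFAIP3 (chr6:137867214-137883314) rose from 6.01, 3.75 and 4.79 CPM in Ctrl to 31.2, 43.2 and 60.1 in Dec and 30.9, 37.4 and 57.0 in Dec_Sam. The Dec and Dec_Sam libraries covered nearly the same range. The rise was 9.23-fold in Dec (5.02 to 17.0, adjusted p = 0.000164) and 8.60-fold in Dec_Sam (4.67 to 15.8, adjusted p = 0.000208). The antisense long non-coding RNA WAKMAR2, which shares 95 exonic bases with TNFAIP3, went from 0 to 8 counts in Ctrl to 37 to 62 in the treated libraries (log2 fold change 3.13 in Dec, adjusted p = 4.3e-05), and without strand information in the sources used here reads from the shared bases cannot be told apart.

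BIRC3 (chr11:102317484-102339403) had the largest fitted rise of the 9 genes in Dec, from 4.82, 2.95 and 4.05 CPM in Ctrl to 40, 53.1 and 69.2. In Dec_Sam it was at 17.5, 24.5 and 49.6 CPM. All treated libraries were above all controls, and replicates 1 and 2 of Dec_Sam were below the lowest Dec library. The rise was 13.7-fold in Dec (5.95 to 31.6, adjusted p = 0.000474) and 7.75-fold in Dec_Sam (3.35 to 18, adjusted p = 0.00178). ENSG00000288528, an antisense RNA that shares 126 exonic bases with BIRC3, had at most 4 counts in any library.

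TNF (chr6:31575565-31578336) had 0 counts in the 3 Ctrl libraries, 3, 13 and 10 in Dec and 0, 4 and 8 in Dec_Sam. Every Dec library had reads and no control did, and 1 Dec_Sam library had none. Taken against a floor of 3 counts over the 3 controls, the observed level was 7.37-fold higher in Dec and 3.49-fold higher in Dec_Sam. This floor bounds the controls only, and the treated counts were taken as measured. The two-sided exact permutation test gave p = 0.1 for Dec and p = 0.4 for Dec_Sam against Ctrl, where 0.1 is the smallest p that 3 against 3 libraries allow. With no filter on low counts, the edgeR test over all genes gave TNF adjusted p-values of 7.70e-06 and 0.00190. In bulk RNA, fewer cells with a transcript and less transcript per cell cannot be told apart, for TNF and for all values given here.

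**Figure D4:**
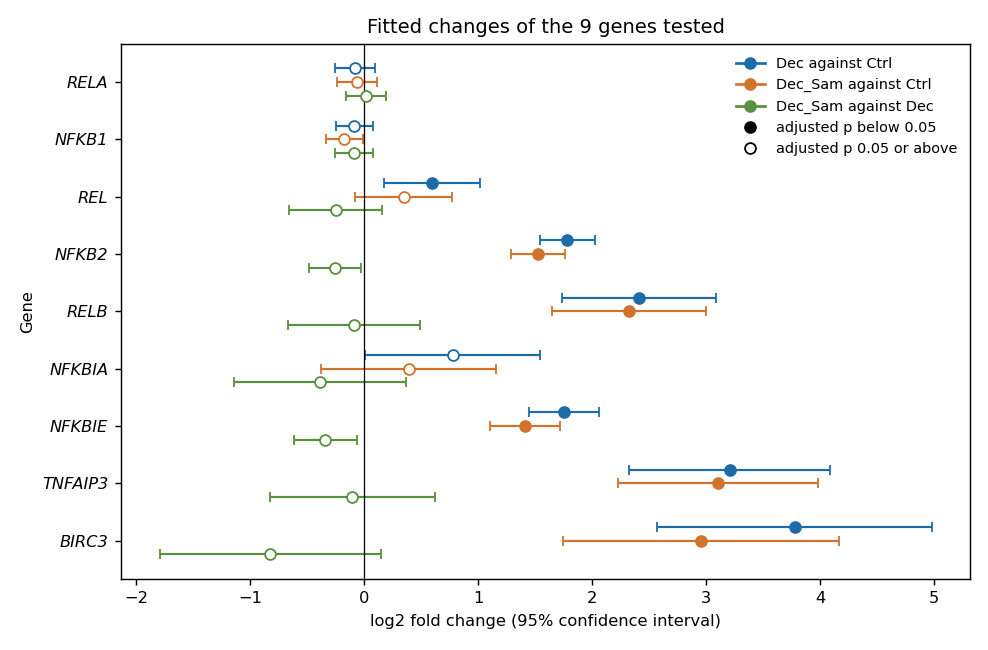
Fitted log2 fold change of the 9 genes tested, with 95% confidence intervals, for the 3 comparisons, where filled points have an adjusted p below 0.05 over all genes. The intervals of RELB, NFKB2, NFKBIE, TNFAIP3 and BIRC3 lie above 0 against Ctrl, and no filled point appears for Dec_Sam against Dec.

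The addition of SAM to decitabine left none of these genes past the threshold. In Dec_Sam against Dec, 0 of the 9 were higher and 0 lower in the edgeR test, beside 7.67% and 8.02% of all genes, and 2, NFKB2 and NFKBIE, had an unadjusted p below 0.05. The fitted value was below 0 for 8 of the 9, with a median of -0.25 where that of all genes was 0.0021. For NFKBIA alone all Dec_Sam libraries were below all Dec libraries, as for 16.8% of all genes.

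The size of these differences bounds what SAM could have changed. NFKB2 was 0.84 times its Dec level (95% confidence interval 0.71 to 0.98, adjusted p = 0.114) and NFKBIE 0.79 times (0.65 to 0.96, adjusted p = 0.0919). BIRC3 had the largest fitted difference, 0.57 times (0.29 to 1.11, adjusted p = 0.226), and NFKBIA followed at 0.77 times (0.45 to 1.29, adjusted p = 0.462). The intervals were wide for RELB (0.63 to 1.40) and TNFAIP3 (0.56 to 1.54) and narrow for RELA (0.90 to 1.14) and NFKB1 (0.84 to 1.06), and a value that missed the threshold does not show that the level was the same. Dec_Sam replicate 3 weighed on this comparison: without it NFKB2 (log2 fold change -0.35, adjusted p = 0.0272), NFKBIE (-0.43, adjusted p = 0.0397) and BIRC3 (-1.36, adjusted p = 0.0102) were lower. With the replicate number as a block NFKB2 (-0.26, adjusted p = 0.0224) and NFKBIE (-0.34, adjusted p = 0.0487) were also lower. NFKBIE also passed without Dec replicate 1 (-0.45, adjusted p = 0.0443), and NFKBIA without Ctrl replicate 1 (-0.38, adjusted p = 0.0211).

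The treated libraries differed in a shared way across these genes. In Dec, replicate 1 was the lowest library for 9 of the 9 genes tested and replicate 3 the highest for 8, whereas over all genes tested these were 36.9% and 38.9%. In Dec_Sam, replicate 3 was highest for 9 of 9 and replicate 1 lowest for 7, beside 38.1% and 37.0% of all genes. In Ctrl no library was highest for more than 4. The 2 replicates numbered 3 also had the largest TMM factors of their groups, 1.08 and 1.07, and the part of that in the pattern was not tested.

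Per length, the order of the genes changed with treatment. In Ctrl the mean levels were 17.5 CPM per kb of exon for RELA, 12.7 for NFKBIA, 6.0 for NFKB2, 2.73 for NFKBIE, 2.38 for NFKB1, 1.32 for RELB, 0.753 for TNFAIP3, 0.526 for BIRC3, 0.273 for REL and 0 for TNF. The ranges of the 3 libraries overlapped between RELA and NFKBIA, between NFKBIE and NFKB1 and between TNFAIP3 and BIRC3. In Dec, NFKBIA (21.7 CPM per kb), NFKB2 (20.7) and RELA (16.5) led with overlapping neighbours. NFKBIE (9.18), BIRC3 (7.23), RELB (7.00) and TNFAIP3 (6.96) followed, each overlapping with the next, and all were above NFKB1 (2.24), which in Ctrl was above RELB, TNFAIP3 and BIRC3. In Dec_Sam the leading genes were NFKB2 (17.3), RELA (16.7) and NFKBIA (16.6), and BIRC3 (4.08) came after TNFAIP3 (6.48). REL and TNF were the lowest of the 10 in every group. The denominator is the union of all annotated exons, and with the longest transcript in its place NFKB1 was at 5.30 and NFKB2 at 9.83 CPM per kb in Ctrl, so only ratios between groups are free of that choice.

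Across the wider pathway, lists of 83 other genes were fixed by role, 82 of which were matched (SOD2 was not) and 73 tested. In Dec against Ctrl 46 of the 73 were higher and 12 lower, where 36.3% and 32.5% of all genes were. In Dec_Sam against Ctrl these were 41 and 11 (35.9% and 31.3% of all genes), and in Dec_Sam against Dec 3 and 11 (7.67% and 8.02%). These percentages are the background for the lists that follow. Of the 73, 9 had fewer than 10 counts in every control library and so passed the filter through the treated groups. The lists were written with earlier results of these data known, so their counts are a description.

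Of the 20 NF-κB target genes tested, 18 were higher and 1 lower in Dec, and 16 were higher and 0 lower in Dec_Sam. For 6 of the 20, PTGS2 and CCL20 among them, no control library reached 10 counts. These 6 could pass the filter only where they were high, so their fitted values against Ctrl are a description. Of the other 14, 12 were higher and 1 lower in Dec (36.3% and 32.5% of all genes) and 10 were higher and 0 lower in Dec_Sam, with median log2 fold changes of 1.11 and 0.96 against 2.06 and 1.55 over all 20. PTGS2, the inducible prostaglandin synthase, had 1, 2 and 0 counts in Ctrl and 123, 250 and 262 in Dec, a ratio of 180.1 with a 95% counting interval of 61.4 to 876. CCL20, a chemokine for CCR6-bearing lymphocytes, had 3, 1 and 3 counts in Ctrl, 192, 392 and 516 in Dec and 128, 206 and 414 in Dec_Sam (log2 fold change in Dec 7.00, SE 0.93, adjusted p = 0.000388). BCL2A1, an anti-apoptotic BCL2 relative, was the only one that fell in Dec, by 0.75 on the log2 scale (SE 0.26, adjusted p = 0.0175), and this was lost without Ctrl replicate 2 (adjusted p = 0.0750) or Dec replicate 1 (0.0726) and with library totals alone (0.102). Of the listed target genes, tested or not, 20 had a promoter window. The κB consensus was in 11 of their 28 windows, of 11 genes, against 5.91% of the windows of all genes. These 11 genes include VCAM1 and SELE, which were not tested. The genes were listed as NF-κB targets and the windows of all genes were not matched for CpG content, so these shares are a description. The consensus was in 6 of 12 windows of the inhibitors and coregulators, 5 of 13 of the ligands and 5 of 19 of the negative feedback genes. For adaptors and kinases it was 2 of 30, and for receptors 0 of 10.

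Of 10 receptors tested, 5 were higher and 4 lower in Dec (36.3% and 32.5% of all genes), and 5 and 3 in Dec_Sam. For 2 of the 10, TLR3 among them, no control library reached 10 counts. These 2 could pass the filter only where they were high, so their fitted values against Ctrl are a description. Among the other 8, 3 were higher and 4 lower in Dec, and 3 and 3 in Dec_Sam. Their median log2 fold changes were -0.19 and -0.10. The number lower in Dec was 2 with library totals alone. TNFRSF1B, the inducible second TNF receptor, rose from 33, 28 and 38 counts in Ctrl to 587, 658 and 689 in Dec and 656, 640 and 663 in Dec_Sam, which was 16.6-fold in Dec (13.8 to 20, adjusted p = 1.09e-11). TLR3, a sensor of double-stranded RNA, had 4, 1 and 0 counts in Ctrl and 71, 77 and 83 in Dec (log2 fold change 5.20, SE 0.89, adjusted p = 0.000537), against 3, 6 and 35 in Dec_Sam. TNFRSF11A, the receptor RANK, fell in Dec by 1.40 on the log2 scale (SE 0.08, adjusted p = 3.4e-09), and LTBR, the lymphotoxin β receptor that feeds the non-canonical arm, fell by 0.75 (SE 0.07, adjusted p = 4.57e-07).

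Among 23 adaptors and kinases, 12 were higher and 5 lower in Dec, and 8 and 6 in Dec_Sam, where 8 of 23 is close to the 35.9% of all genes that were higher. MAP3K14, the kinase NIK, rose from 21.8, 26.2 and 29.9 CPM in Ctrl to 57.8, 72.3 and 81.4 in Dec and 45.9, 49.4 and 66.0 in Dec_Sam, 2.71-fold (2.07 to 3.56, adjusted p = 4e-05) and 2.07-fold (1.58 to 2.72, adjusted p = 0.000393). MYD88, the adaptor of Toll-like and interleukin-1 receptors, rose 3.94-fold in Dec (3.16 to 4.92, adjusted p = 4.37e-07). TAB1, a partner of the kinase TAK1, fell in Dec by 1.13 on the log2 scale (SE 0.08, adjusted p = 1.43e-08), and IRAK1, a kinase of the MYD88 arm, by 1.04 (SE 0.07, adjusted p = 2.57e-08). With library totals alone the number lower in Dec was 2 rather than 5.

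Of the 10 other negative feedback genes tested, 8 were higher and 1 lower in Dec (36.3% and 32.5% of all genes), and 7 and 1 in Dec_Sam. TRAF1, an adaptor that binds BIRC3, rose from 22, 19 and 32 counts in Ctrl to 250, 393 and 606 in Dec, a log2 fold change of 3.86 (SE 0.48, adjusted p = 0.000185), and TNIP1, the A20-binding protein ABIN1, rose by 0.78 (SE 0.15, adjusted p = 0.000899). OTULIN, which removes linear ubiquitin chains, fell by 0.57 (SE 0.08, adjusted p = 1.79e-05). Of the 6 further inhibitors and coregulators 2 were higher in Dec, a share close to the 36.3% of all genes, NKIRAS1 (log2 fold change 0.90, SE 0.10, adjusted p = 2.42e-06) and NKIRAS2 (0.42, SE 0.08, adjusted p = 0.000477), which bind IκB proteins, and 4 in Dec_Sam. Of the 9 ligands only 4 were tested. TNFSF12, the ligand TWEAK, fell by 1.79 in Dec (SE 0.16, adjusted p = 2.57e-07). LTB, a lymphotoxin subunit named after its values were seen as the 1 tested ligand that rose, had 0 counts in Ctrl, 57 over the Dec libraries and 38 over the Dec_Sam libraries. LTB could pass the filter only where it was high. Among the ligands that did not pass the filter, TNFSF13B had 0 counts over the Ctrl, 36 over the Dec and 3 over the Dec_Sam libraries. TNFSF14 had 2, 20 and 15, and LTA had 4, 17 and 12. With no filter 3 of the 9 ligands were higher in Dec, and the share of all genes called in that fit is given in the closing section.

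Between Dec_Sam and Dec, 4 adaptors and kinases and 6 target genes were lower, beside 8.02% of all genes. The 4 were RIPK1, MYD88, RNF31 and RBCK1, the last 2 named after their values were seen because the group was small. RIPK1, the kinase of the TNF receptor complex, was at 40, 38.2 and 40.7 CPM in Ctrl, 48.0, 53.2 and 49.9 in Dec and 25, 25.5 and 32.0 in Dec_Sam. All Dec_Sam libraries were below Ctrl and all Dec libraries above it, with a log2 fold change of -0.87 (SE 0.09, adjusted p = 0.000307) between the treatments. RNF31 and RBCK1, subunits of the linear ubiquitin ligase complex, were each higher in Dec and lower in Dec_Sam than in Ctrl, though for RBCK1 the Dec_Sam and Ctrl libraries overlapped and the call was lost with library totals alone (adjusted p = 0.238). They differed between the treatments by -0.76 (SE 0.09, adjusted p = 0.000333) and -0.71 (SE 0.09, adjusted p = 0.000529). MYD88 stayed above Ctrl in both and was lower in Dec_Sam than in Dec by a log2 fold change of -0.93 (SE 0.14, adjusted p = 0.00261).

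Of the 6 target genes lower in Dec_Sam than in Dec, 4 are named after their values were seen. PLAU, the urokinase plasminogen activator, was at 275.5, 308.3 and 338.6 CPM in Ctrl, 567, 687.1 and 639.3 in Dec and 383.7, 374.3 and 485.1 in Dec_Sam. Every Dec_Sam library was below every Dec library (log2 fold change -0.61, SE 0.11, adjusted p = 0.00397) and kept its call in all 9 fits that left out 1 library. The adhesion molecule ICAM1 (-0.65, SE 0.16, adjusted p = 0.0220), the caspase-8 inhibitor CFLAR (-0.53, SE 0.14, adjusted p = 0.0246) and the lipocalin LCN2 (-0.68, SE 0.19, adjusted p = 0.0425) lost it in 3 (adjusted p up to 0.095), 4 (0.107) and 7 (0.149) of the 9, each without Dec replicate 2, Dec replicate 3 or Dec_Sam replicate 2 among them.

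The calls of the remaining differences between the treatments also did not hold in every fit. The chemokine CXCL2 (-0.86, SE 0.26, adjusted p = 0.0380) and the cytokine IL6 (-0.86, SE 0.25, adjusted p = 0.0358) were lower in Dec_Sam, as was TLR3 (-2.35, SE 0.61, adjusted p = 0.0322), and TNFRSF11A (0.30, SE 0.08, adjusted p = 0.0251), TNFRSF1A (0.25, SE 0.08, adjusted p = 0.0476) and the A20 partner RNF11 (0.25, SE 0.08, adjusted p = 0.0378) were higher. Each was lost in some of the 9 fits that left out 1 library, for IL6, TLR3 and TNFRSF1A also in fits without a control library. The call was lost without Dec replicate 2 or Dec_Sam replicate 2 for all 6 genes, and in 4 fits for CXCL2 (adjusted p up to 0.145), 6 for IL6 (0.164), 6 for TLR3 (0.12), 4 for TNFRSF11A (0.115), 8 for TNFRSF1A (0.193) and 4 for RNF11 (0.128). The number of target genes lower went from 6 to 1 without Dec replicate 2, Dec replicate 3 or Dec_Sam replicate 2, and that of adaptors and kinases from 4 to 8 without Dec_Sam replicate 3. The share of all genes lower moved the same way, from 8.02% to 2.53% without Dec_Sam replicate 2 and to 10.5% without Dec_Sam replicate 3.

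**Figure D5:**
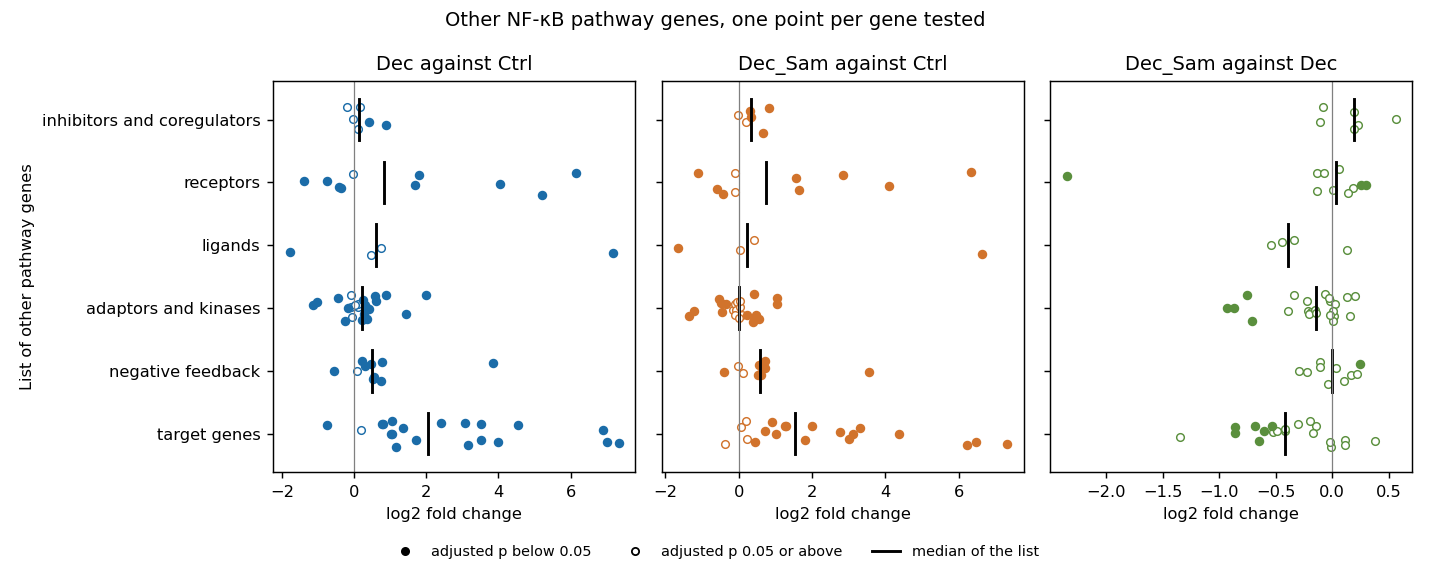
Log2 fold change of the 73 other pathway genes tested, by list, in the 3 comparisons, with 1 point per gene, filled where the adjusted p was below 0.05, and a black line at the median of the list. Target genes lie mostly to the right of 0 against Ctrl, with medians of 2.06 and 1.55 that include 6 genes under 10 counts in every control, and the x axis of the Dec_Sam against Dec panel has its own scale.

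For the 3 members whose group means ranged most, the genes with the most similar levels over the 9 libraries were named by Pearson correlation of log2 CPM among all 18532 genes tested. For BIRC3 they were HES4 (r = 0.9965), TTPAL (0.9964) and RASGRP3 (0.9960). For TNFAIP3 they were SAV1 (0.9971), CCL20 (0.9960) and CLCN3P1 (0.9957), and for RELB they were KRT17 (0.9975), C4orf19 (0.9967) and CDKN1A (0.9965). The libraries fall into treated and control groups, which alone gives a high r to genes that differ between them, so these values are a description.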

How the data were processed

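Total RNA from PC-3 cells was sequenced on a BGISEQ-500 instrument. According to the submitters' notes the reads were trimmed with Trim Galore 0.6.4 and assigned to transcripts with kallisto on GRCh38.p13. The values used are the estimated counts per gene deposited by the authors, rounded to whole numbers. Files of log2 CPM, which the authors made with library size as the only scaling, were not used. Strandedness was not given in the sources used here. GENCODE release 44 gave a gene name to 60357 of the 60617 identifiers.

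Libraries were scaled by TMM and low genes removed with filterByExpr, which left 18532 genes. One quasi-likelihood fit over the 9 libraries (edgeR 4.0.16, R 4.3.3; common dispersion 0.00977) gave the 3 comparisons, with Benjamini-Hochberg adjustment over all genes tested and a threshold of 0.05. Single values were compared by two-sided exact permutation tests. Alternatives used DESeq2 1.42.0, voom with limma 3.58.1, other scalings and filters, a replicate block and the omission of each library. The 95% intervals of fitted fold changes include the spread between libraries. The interval of the PTGS2 ratio and the floor of 3 counts cover counting error only.

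The members and gene lists were chosen with earlier results of these data known. From each list at most 2 genes per direction were named in Dec against Ctrl and in Dec_Sam against Dec. These had the largest fold change among those past the threshold whose mean reached 20 counts in any of the 3 groups. For the 3 members with the largest range, the 3 genes with the highest Pearson r were named. SAM-only libraries and DNA methylation were not analysed here. Some of the marker genes chosen for the check of cell types are not reported here.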

Additional observations from a re-analysis of the deposited data

How the results depend on the processing

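NFKB2, RELB, NFKBIE, TNFAIP3 and BIRC3 were higher than Ctrl in both treatments under all 17 alternatives. With library size alone, which raised the share of higher calls among all genes from 52.7% to 70.3% in Dec, from 53.4% to 69.3% in Dec_Sam, and the median log2 fold change to 0.28 and 0.27, NFKB1 changed sign to 0.16 in Dec and 0.0475 in Dec_Sam, RELA to 0.16 and 0.16, and RELA in Dec_Sam against Dec to -0.0064. Leaving out each library gave 6 to 8 members higher in Dec, beside 33.6% to 36.7% of all genes. In Dec_Sam 5 to 7 were higher (33.0% to 36.1%) and 0 to 1 lower (28.5% to 31.5%). In Dec_Sam against Dec 0 to 3 were lower (2.53% to 10.5%), and both the 3 and the 10.5% came without Dec_Sam replicate 3. The log2 fold changes of Dec_Sam against Dec in these fits ranged from -0.0567 to 0.103 for RELA, -0.327 to 0.1663 for RELB and -0.3919 to 0.1662 for TNFAIP3. The number lower in Dec_Sam against Dec was 0 in edgeR, 1 with voom and limma, 1 with only the 6 libraries compared (NFKBIA) and 2 with no filter (NFKB2 and NFKBIE). The cause of these changes was not tested, and the share of all genes lower in these alternatives, the block included, is not given here. With the replicate number as a block the number of members lower was also 2, NFKB2 (-0.26, adjusted p = 0.0224) and NFKBIE (-0.34, adjusted p = 0.0487). The numbers were not taken to pair the libraries, since only 2 of 9 same-number pairs had a correlation of deviations over 0.1 (-0.0165 to 0.233), though among the Dec to Dec_Sam pairs each library correlated best with its own number. The percentage of all genes called fell with no filter, to 21.4% higher and 17.1% lower in Dec. Depth limits most TNF, with at most 13 counts in a library, and BIRC3 in Ctrl, with 59 to 97.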
